A study of Mus musculus with 24 samples.

Results

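Among the 22590 open reading frames (ORFs) with ribosome footprints listed for mouse liver, 284 (1.26%) overlapped the longest ORF of their own transcript. The ORFs lay on 21008 transcripts, and 1414 of these transcripts carried more than 1 ORF. On each such transcript the longest ORF was set aside (the one with the smaller start where lengths were tied), and of the other 1582 ORFs those that shared at least 1 position with it were taken. The choice used positions only and no count. The 284 overlapping ORFs lay on 284 transcripts, 1 on each. The deposited table names an ORF by its Ensembl transcript and its first and last position in that transcript, and the files do not pair transcripts with gene names, so each ORF is named here by transcript and positions.

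A messenger RNA usually has 1 main coding sequence, which ribosomes reach by scanning from the 5′ end of the RNA. An ORF that starts upstream and runs into the main one in another frame carries ribosomes past the main start codon, and such overlapping upstream ORFs are known as strong brakes on the translation of the main protein. The textbook case is Atf4, a transcription factor of the stress response, whose overlapping upstream ORF is bypassed when initiation factor eIF2 is phosphorylated. ORFs that begin inside the main one and end behind it are less well understood. Whether the longest ORF of a transcript was its main coding sequence could not be checked here. Ribosome profiling sequences the stretch of RNA that each ribosome protects, and assigns every footprint to the codon in the ribosome's peptidyl site (P-site).

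The 24 libraries came from 24 livers of male F1 hybrid mice of the C57BL6J and FVBN strains, 4 in each of 6 groups, which were housed singly and kept on an AIN93G diet. Wild types (Ercc1 +/+) were taken at 16 weeks after free feeding (called fed wild types), at 16 weeks under dietary restriction (restricted wild types) and at 104 weeks after free feeding (old wild types). Ercc1 d/- mutants, which lack most function of a DNA repair nuclease subunit and age early, were taken at 7 weeks (young mutants) and at 16 weeks (fed mutants) after free feeding, and at 16 weeks under restriction (restricted mutants). Restriction began at 7 weeks with 10% less food and reached 30% at 9 weeks. All livers were treated with cycloheximide and RNase I in the making of the libraries, so every group shares any effect of these agents. The mutants are a progeroid model and not old animals, and whole liver mixes several cell types.

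The libraries held 8562294 to 27241137 P-sites on ORFs, and the lowest totals were those of the old wild types (8562294 to 15839538). Footprints on the targeted gene, Ercc1, numbered 1 to 15 per mutant library and 34 to 110 per wild-type library in the authors' table of counts per gene, so no library went against its labelled genotype. All 6 hepatocyte markers were present, with summed levels of 93665 to 230500 counts per 1000000 (CPM). No pair of libraries of a group agreed within sampling noise. Matched mRNA libraries were not analysed here, so a change in footprints can be a change in mRNA, in its translation or in both.

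The overlapping ORFs fell into 2 arrangements and no others. In 222 (78.2%) the ORF started before the longest ORF and ended inside it, and in 62 it started inside the longest ORF and ended behind it. None (0) lay wholly inside the longest ORF, and none (0) was in its frame. The latter is fixed for these 2 arrangements, because ORFs that overlap in the same frame end at the same stop codon. Of the ORFs that started before, 93 were shifted by 1 base and 129 (58.1%) by 2 bases relative to the longest ORF. Of those that ended after, 48 (77.4%) were shifted by 1 base and 14 (22.6%) by 2. Among the 1073 upstream ORFs that ended before the longest ORF, which can lie in any frame, the shares of the 3 frames were 31.5%, 35.5% and 33.0%.

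**Figure D1:**
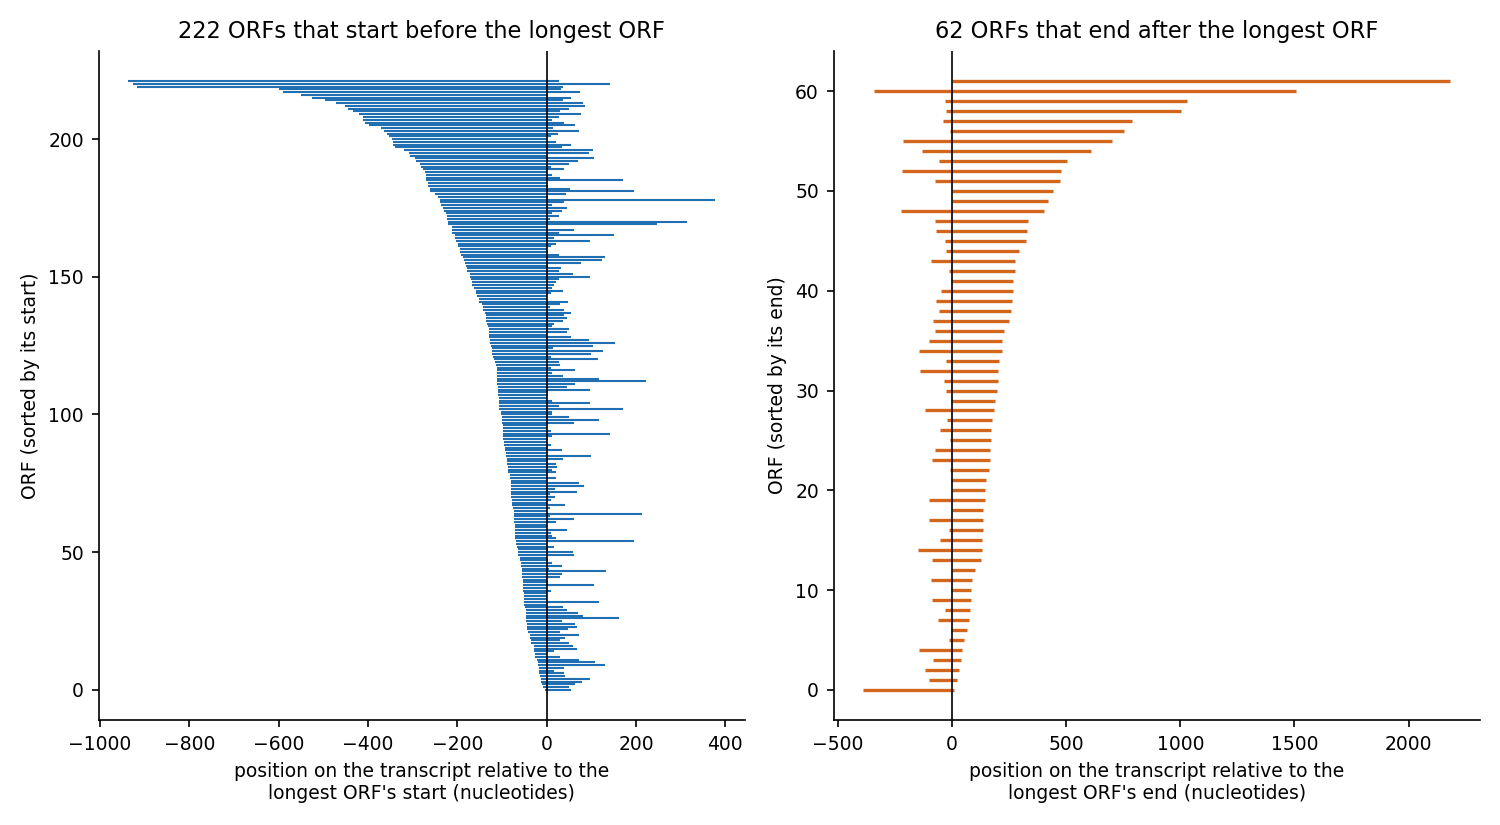
Each horizontal bar is 1 of the 284 overlapping ORFs, drawn in nucleotides (nt) from the start of the longest ORF for the 222 that started before it, and from the end of the longest ORF for the 62 that ended after it. The overlap is the stretch of each bar beyond the zero line, with a median of 34 nt in the first panel and 59 nt in the second.

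The ORFs were short and their overlaps shorter. The median length was 183 nt (61 codons), with a range of 27 to 2184 nt, and 211 of 284 had fewer than 100 codons. ORFs that started before the longest ORF had a median of 53.5 codons and those that ended after it 92.5. For comparison, the longest ORFs of the same transcripts had a median of 985.5 nt, and upstream ORFs without overlap a median of 93 nt. The overlap had a median of 35 nt (1 to 392 nt), which was 17.9% of the overlapping ORF and 3.39% of the longest ORF. Only 50 of 284 shared at least 50% of their own length, and 2 at least 90%.

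A single shared base was a common form of overlap. It was found in 36 ORFs, 30 that started before and 6 that ended after. None (0) shared exactly 2 bases, which the genetic code does not allow where the start codon is AUG. These 36 stood at the border of the rule, with a median level of 0.426 CPM. Just outside it, 66 ORFs lay within 10 nt of the longest ORF without touching it, the nearest at a distance of 2 nt, and their median level was 0.371 CPM. The other border was length: 12 of the 284 had at least 90% of the length of the longest ORF, and 1 of them, ORF 751 to 1149 of ENSMUST00000189105, had the same length. In 7 of 284 the ORF began at the first base of the transcript (2.46%, against 2.87% of all ORFs).

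Footprint levels spanned a wide range, and most were low. The median over the 284 of the mean level in the 24 libraries was 0.770 CPM, against 3.63 CPM for all ORFs, 0.310 CPM for upstream ORFs without overlap and 0.258 CPM for downstream ones. ORFs that ended after the longest ORF stood higher (median 2.21 CPM) than those that started before it (0.637 CPM). In all, 128 ORFs reached 1 CPM, 46 reached 5 CPM and 2 reached 100 CPM. Of the 284 ORFs, 190 had at least 1 P-site in every one of the 24 libraries, and the total per ORF over all libraries had a median of 328 (4 to 75942).

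The 2 most abundant overlapping ORFs held 31.0% of the 483610 P-sites counted on all 284. ORF 3080 to 5263 of ENSMUST00000160679, at 728 codons also the longest of the 284, averaged 178 CPM and shared 1 base with the longest ORF of its transcript, which had 1007 codons and ended at position 3080. ORF 675 to 917 of ENSMUST00000141295, with 81 codons and a shared stretch of 101 nt, averaged 176 CPM. Both ended behind the longest ORF. The most abundant ORFs of the other arrangement were ORF 1 to 555 of ENSMUST00000228186 (185 codons, 57.1 CPM), ORF 117 to 419 of ENSMUST00000030455 (101 codons, 46.3 CPM) and ORF 71 to 334 of ENSMUST00000166104 (88 codons, 33.1 CPM).

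At the median, the listed overlapping ORFs carried somewhat more footprints per codon than the longest ORFs they touched, with a wide spread. How ORFs were found is not given, so whether ORFs with few footprints were left out is not known. The ratio of P-sites per codon, overlapping over longest ORF, had a median of 1.26 (quartiles 0.778 and 1.90). It was above 1 in 172 of 284 (60.6%), above 2 in 64 and under 0.5 in 27. The median was 1.29 for ORFs that started before the longest ORF and 0.897 for those that ended after it. Upstream and downstream ORFs without overlap stood in the same order, at 1.57 and 0.795. In 30 of 284 (10.6%) the overlapping ORF held more P-sites than the longest ORF in spite of its smaller length.

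**Figure D2:**
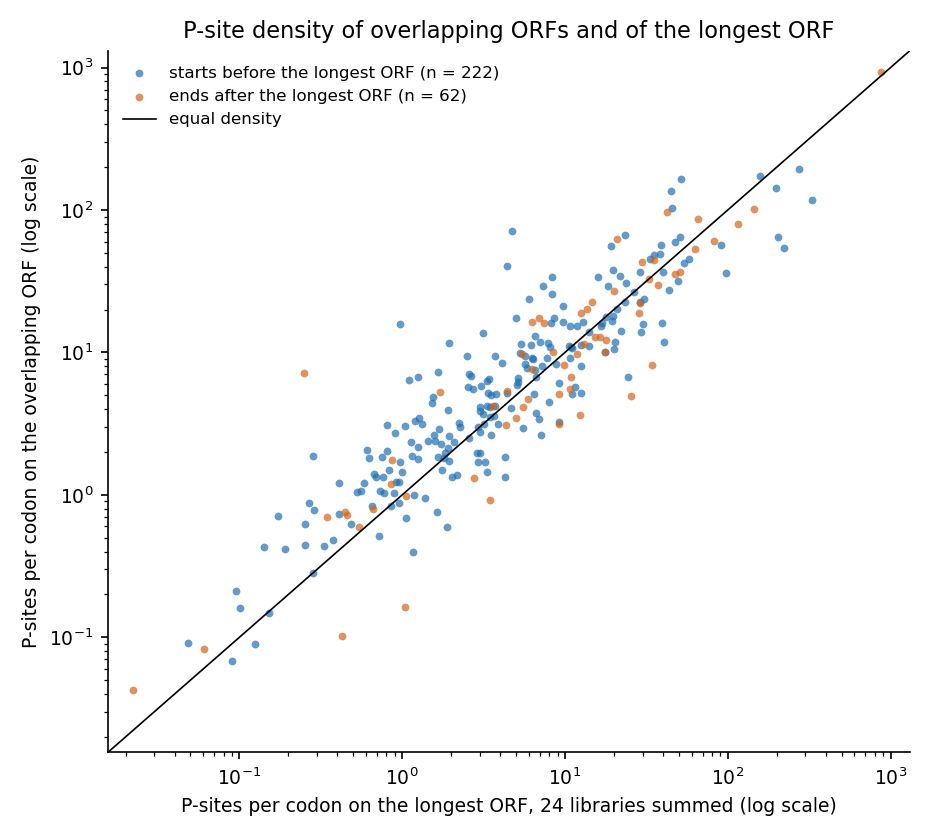
P-sites per codon, summed over the 24 libraries, of each of the 284 overlapping ORFs (vertical, log scale) against the longest ORF of its transcript (horizontal, log scale), with the line of equal density. Of the points, 172 lie above the line, and the ORFs that ended after the longest ORF lie lower against it (median ratio 0.897) than those that started before (1.29).

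The median ratio was lower where more positions were shared, and this difference was not tested. It was 1.485 at 1 shared position (36 ORFs), 1.263 at 2 to 30 (88 ORFs) and 1.145 at over 30 (160 ORFs). By share of the ORF's own length there was no steady order. The median was 1.35 where less than 10% of the ORF was shared (94 ORFs), 1.11 between 10% and 50% (140 ORFs) and 1.22 from 50% upward (50 ORFs). Across the 24 libraries, the median over ORFs of the correlation with the longest ORF was 0.424, 0.468 and 0.477 in the same order (60, 101 and 32 ORFs with enough counts). This correlation is a description over libraries that share their depth and their liver. Whether a P-site in a shared stretch was counted for 1 ORF or for both is not given in the sources used here, and that bears on every ratio of an overlapping to a longest ORF.

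A few overlapping ORFs were far denser than the longest ORF. ORF 151 to 687 of ENSMUST00000219894 (179 codons) held 2848 P-sites against 277 on the longest ORF of 285 codons, a density ratio of 16.4. ORF 498 to 674 of ENSMUST00000109605 (59 codons) held 4234 against 1578 on 333 codons, a ratio of 15.1. ORF 1448 to 1624 of ENSMUST00000134929 (59 codons) held 2400 against 266 on a longest ORF of only 60 codons, a ratio of 9.18. In these 3 transcripts the longest ORF was not the one with the most footprints. In such cases the overlapping ORF may itself be the annotated coding sequence, which could not be checked without an annotation. The ratio of 28.5 of ORF 466 to 795 of ENSMUST00000121485 was the highest of all and rested on 784 against 29 P-sites.

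The overlapping ORFs together took 0.113% of the P-sites on ORFs, and the restricted mutants had the lowest share. It was 0.0898%, 0.0858%, 0.0970% and 0.0962% in the 4 restricted mutants (mean 0.0922 ± 0.00533, SD, n = 4), below all 20 other libraries, the lowest of which stood at 0.101%. The fed mutants had 0.123 ± 0.00174%, the restricted wild types 0.106 ± 0.00430%, the fed wild types 0.117 ± 0.00512%, the young mutants 0.116 ± 0.00499% and the old wild types 0.123 ± 0.0160% (each SD, n = 4). The 2 most abundant ORFs made up much of this difference: without them, the restricted mutants had 0.0670% to 0.0725% and the restricted wild types 0.0720% to 0.0750%, so that these groups overlapped. The fed mutants then had 0.0752% to 0.0869%, still above every restricted mutant.

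**Figure D3:**
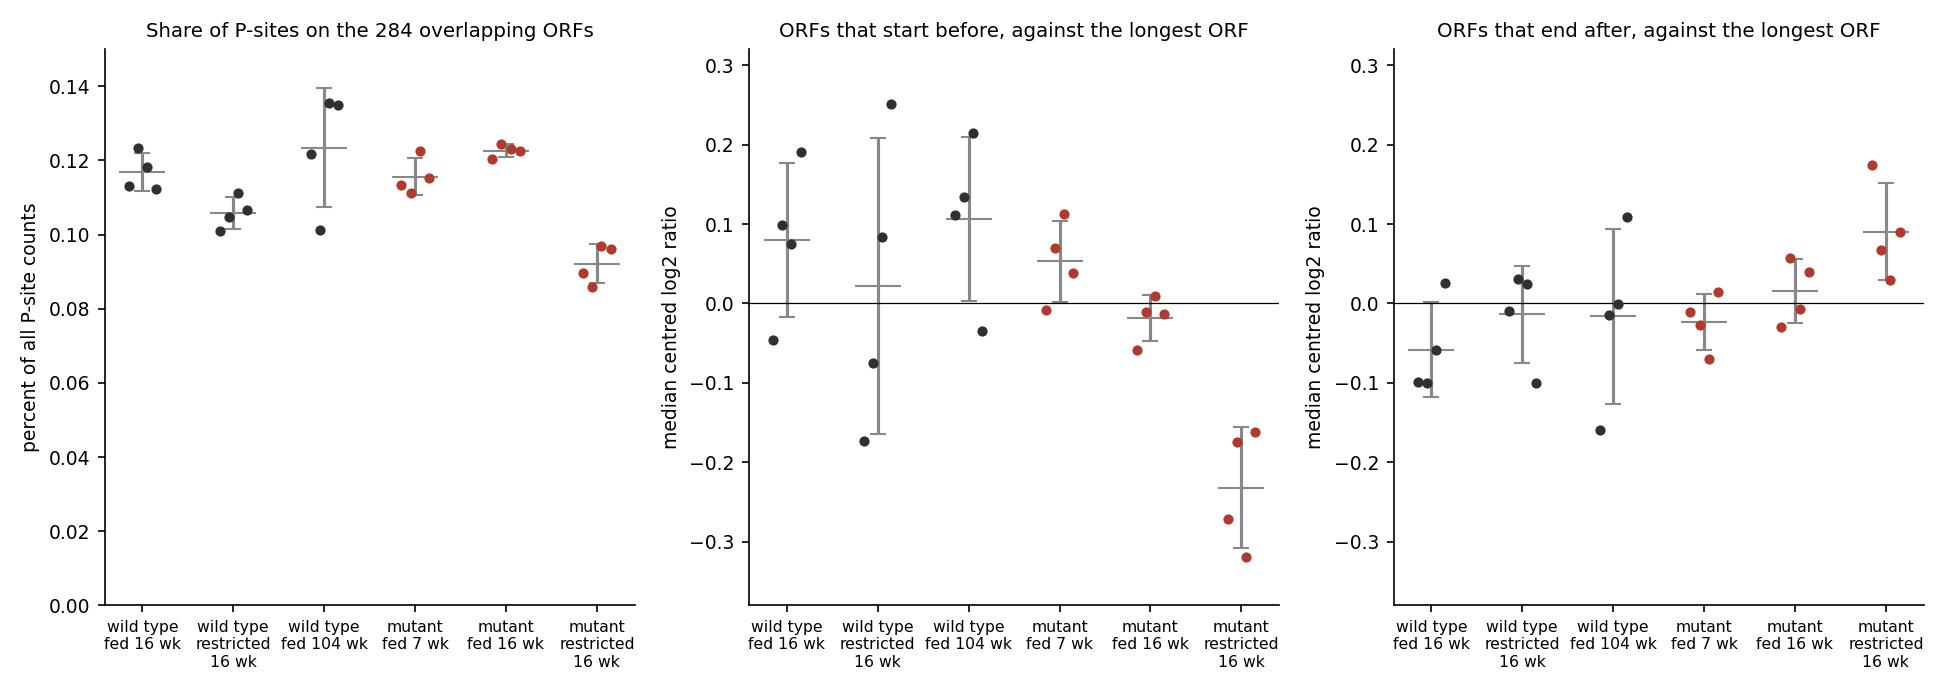
One point per library in the 6 groups, with bars for the mean ± SD (n = 4): the percentage of P-sites on the 284 overlapping ORFs, and the median over ORFs of the log2 ratio of overlapping to longest ORF, centred on each ORF's mean, for ORFs that started before and for ORFs that ended after. The restricted mutants have the lowest share (0.0858% to 0.0970%) and low ratios for ORFs that started before (-0.32 to -0.16), among which 1 restricted wild type (-0.17) also lies.

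Enough P-sites for a test in each ORF were found for 196 of the 284 (69.0%, against 81.2% of all ORFs), of which 148 started before and 48 ended after the longest ORF. The other 88 had totals of 4 to 156 over all libraries. The test was edgeR's quasi-likelihood test on the counts of all 18344 ORFs that passed the same filter, with Benjamini-Hochberg adjustment over all of them, and an ORF is said to rise or fall where its adjusted p was below 0.05. Changes are log2 fold changes with their standard errors. Differences against fed wild types share those 4 livers, those against fed mutants share theirs, and likewise for the restricted groups, so counts from different comparisons are not independent. In every comparison a fall of footprints from fewer cells of a type cannot be told apart from less RNA per cell.

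The first question was what the Ercc1 mutation did at 16 weeks with free feeding. Of the 196 overlapping ORFs tested, 4 rose and 3 fell in fed mutants against fed wild types (3.57%, against 9.14% of all ORFs tested, 5.03% up and 4.12% down). The median log2 change of the overlapping ORFs was -0.06, against 0.01 for all ORFs. In 2 of the 7 the longest ORF of the transcript was called in the same direction, and in none (0) in the opposite one.

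ORF 7 to 447 of ENSMUST00000227032, which started before the longest ORF, was the clearest rise. It stood at 3.36, 2.60, 3.18 and 3.01 CPM in the fed wild types and at 7.60, 7.89, 7.77 and 4.79 CPM in the fed mutants. Every mutant lay above every wild type, although mutant replicate 4 was well below the other 3. The log2 change was 1.20 ± 0.24 (2.30-fold, adjusted p = 0.00189), and that of its longest ORF 0.84 (adjusted p = 0.0105). ORF 1275 to 1673 of ENSMUST00000114455 ended after the longest ORF and shared 98.2% of its own length with it. Its levels were 12.0, 12.1, 12.2 and 15.5 CPM in fed wild types and 25.4, 19.3, 27.1 and 19.5 CPM in fed mutants, again without overlap. It rose by 0.82 ± 0.20 (adjusted p = 0.00898), beside 0.61 (adjusted p = 0.0197) for the longest ORF. How P-sites in shared stretches were counted is not given, so these 2 changes may rest in part on the same P-sites.

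The 2 falls printed here depended on single libraries, as did 1 more rise that met the naming rule, lost in 4 of 8 fits that left out 1 library. ORF 348 to 749 of ENSMUST00000156036 (134 codons) stood at 27.9, 15.7, 17.1 and 11.2 CPM in fed wild types and at 7.67, 10.2, 10.98 and 8.90 CPM in fed mutants. The groups did not overlap, but wild-type replicate 1 was far above the rest. Its log2 change was -0.94 ± 0.26 (adjusted p = 0.0209), and the call was lost in 3 of 8 fits that left out 1 library (adjusted p = 0.133 without wild-type replicate 1). ORF 161 to 343 of ENSMUST00000039796 (61 codons) had 8.32, 14.3, 11.8 and 13.6 CPM in fed wild types and 6.08, 7.89, 6.47 and 6.16 CPM in fed mutants, with all mutants lower. Its log2 change was -0.85 ± 0.24 (adjusted p = 0.0224), and the call was lost in 5 of the 8 fits that left out 1 library. The count of 7 calls became 3 without fed mutant 1, fed mutant 4 or fed wild type 1, 4 without fed wild type 4, and 13 when only the compared groups were fitted. Beside these results, the summed level of 8 macrophage markers was 502 to 577 CPM in fed mutants and 216 to 249 CPM in fed wild types. Markers of stellate cells (328 to 433 against 191 to 261 CPM), B and plasma cells (5.21 to 16.0 against 1.39 to 3.95 CPM), endothelial cells (207 to 238 against 198 to 204 CPM) and hepatocytes (118850 to 136230 against 137770 to 147910 CPM) did not overlap between these groups either, and the part of none of them was tested.

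With age in wild types, 3 overlapping ORFs fell and none (0) rose from 16 to 104 weeks (1.53% of 196, against 8.31% of all ORFs, 4.12% up and 4.19% down); 20 had an unadjusted p below 0.05. ORF 1 to 555 of ENSMUST00000228186 was the most abundant of the 3. Its levels were 60.1, 58.9, 51.4 and 55.5 CPM in fed wild types at 16 weeks and 39.7, 34.4, 31.9 and 41.0 CPM at 104 weeks, so that all old livers were lower. The log2 change was -0.62 ± 0.14 (1.54-fold, adjusted p = 0.00594), close to the -0.60 (adjusted p = 0.0215) of the longest ORF, and it passed in every fit that left out 1 library. The other two, both under 5 CPM and named after their values were seen, were ORF 22 to 123 of ENSMUST00000154032 (-1.36 ± 0.42, adjusted p = 0.0421) and ORF 226 to 525 of ENSMUST00000138842 (-1.12 ± 0.35, adjusted p = 0.0469). The count was 1 without old wild type 1, old wild type 3 or fed wild type 4, 6 without old wild type 2, and 7 with DESeq2 or with only the compared groups. The summed level of 6 markers of B and plasma cells was 29.6 to 87.0 CPM in old and 1.39 to 3.95 CPM in fed wild types. Markers of macrophages (300 to 466 against 216 to 249 CPM), neutrophils (6.01 to 9.97 against 1.94 to 5.31 CPM), endothelial cells (217 to 257 against 198 to 204 CPM) and hepatocytes (93665 to 135000 against 137770 to 147910 CPM) did not overlap between these groups either, and the part of none of them was tested.

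From 7 to 16 weeks in fed mutants, edgeR called none (0) of the 196 overlapping ORFs, where 0.474% of all ORFs were called (0.283% up and 0.191% down). Of the 196, 21 had an unadjusted p below 0.05, and the smallest adjusted p was 0.224. DESeq2 also called 0, and a fit of only these groups called 3.

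Dietary restriction in wild types moved 14 overlapping ORFs, 5 up and 9 down (7.14% of 196, against 10.8% of all ORFs, 5.51% up and 5.3% down). Their median log2 change was -0.08, against 0.03 for all ORFs. In 8 of the 14 the longest ORF was called in the same direction, and in 6 only the overlapping ORF was called.

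The rise of ORF 1 to 210 of ENSMUST00000211731 (70 codons, beginning at the first base of the transcript) passed in every fit that left out 1 library. It stood at 16.0, 15.1, 14.1 and 15.4 CPM in fed and at 33.3, 34.0, 29.6 and 33.3 CPM in restricted wild types. The groups were far apart, with a log2 change of 1.10 ± 0.27 (2.15-fold, adjusted p = 0.0105), and the longest ORF moved alike (1.12, adjusted p = 0.0347). ORF 1 to 156 of ENSMUST00000117131 (52 codons, sharing 1 base) had 3.96, 5.20, 5.20 and 5.30 CPM in fed and 11.4, 14.7, 13.1 and 14.4 CPM in restricted wild types. Although no restricted liver came near a fed one, its levels spread widely in other groups, from 1.57 to 8.73 CPM in the young mutants: the log2 change was 1.45 ± 0.45 (adjusted p = 0.0408), and the call was lost in all 8 fits that left out 1 library.

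Among the falls, ORF 8 to 190 of ENSMUST00000170017 (61 codons) had 12.4, 10.5, 12.1 and 10.5 CPM in fed and 6.21, 7.69, 6.09 and 7.59 CPM in restricted wild types. All restricted livers were lower, and the log2 change of -0.73 ± 0.16 (1.66-fold, adjusted p = 0.00371) was larger in size than that of the longest ORF (-0.40, adjusted p = 0.0264). The test of changes relative to the longest ORF, given below, did not call this ORF. ORF 1200 to 1553 of ENSMUST00000239057, which ended after the longest ORF, had 26.2, 25.4, 22.3 and 30.2 CPM in fed and 13.8, 20.7, 16.8 and 18.6 CPM in restricted wild types. The groups did not overlap, but the call (-0.58 ± 0.19, adjusted p = 0.0459) was lost in 7 of 8 fits that left out 1 library. The count of 14 became 9 without fed wild type 2, 6 without fed wild type 3, and 7 without fed wild type 4 or restricted wild type 4. It was 5 when only the compared groups were fitted and 9 with a minimum count of 30. The 6 hepatocyte markers summed to 186290 to 230500 CPM in restricted and 137770 to 147910 CPM in fed wild types. Markers of stellate cells (344 to 558 against 191 to 261 CPM), macrophages (258 to 387 against 216 to 249 CPM), endothelial cells (239 to 334 against 198 to 204 CPM) and cholangiocytes (5.42 to 13.1 against 3.44 to 5.33 CPM) were also higher in every restricted liver, and the part of none of them was tested.

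Under restriction in mutants nearly all calls among the overlapping ORFs were falls. Of 196, 16 fell and 1 rose (8.67%, against 9.77% of all ORFs tested), where all ORFs tested divided into 4.7% up and 5.08% down. The median log2 change was -0.22, against 0.00 for all ORFs and 0.02 for the 1182 longest ORFs of transcripts with several ORFs. Of the ORFs that started before the longest ORF, 99 of 148 had a negative change and 49 a positive one, with a median of -0.28, and the 48 that ended after had a median of -0.01; the difference between the arrangements was not tested. The 500 upstream ORFs without overlap that were tested had a median of -0.30.

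The largest body of footprints that changed was on ORF 3080 to 5263 of ENSMUST00000160679, the most abundant overlapping ORF. Its levels were 281, 180, 227 and 264 CPM in fed mutants and 47.8, 54.7, 84.5 and 99.2 CPM in restricted mutants. The lowest fed mutant was well above the highest restricted one, and the log2 change was -1.73 ± 0.22 (3.33-fold, adjusted p = 6.46e-06). The longest ORF of the transcript fell with it (-1.69, adjusted p = 0.000102), so that the change relative to it was -0.03. In wild types the same ORF stood at 160, 275, 202 and 196 CPM when fed and at 96.8, 134, 172 and 153 CPM when restricted (-0.58 ± 0.21, adjusted p = 0.0813), and these groups overlapped. The difference between the genotypes in the effect of restriction was -1.15 ± 0.30 (adjusted p = 0.0766).

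ORF 30 to 101 of ENSMUST00000044231 is a short one, of 24 codons, which shared 1 base with a longest ORF of 448 codons. It had 16.4, 8.42, 12.9 and 15.5 CPM in fed and 4.18, 7.10, 5.03 and 3.98 CPM in restricted mutants, without overlap. The log2 change was -1.38 ± 0.32 (2.61-fold, adjusted p = 0.00631), beside -1.02 (adjusted p = 0.00146) for the longest ORF. The only rise, named after its values were seen, was that of ORF 207 to 380 of ENSMUST00000227653, a low ORF with 0.217, 0.106, 0.100 and 0.214 CPM in fed and 2.67, 0.826, 0.180 and 0.507 CPM in restricted mutants (2.68 ± 0.70, adjusted p = 0.0131). One restricted mutant lay within the fed range. The count of 17 was 9 without fed mutant 2 and 10 without restricted mutant 2, and 14 or more under every setting that kept all libraries. The hepatocyte markers summed to 176580 to 210160 CPM in restricted and 118850 to 136230 CPM in fed mutants. Cholangiocyte markers summed to 6.18 to 47.2 against 3.66 to 5.80 CPM, and the part of neither list was tested.

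Between the restricted groups, 7 overlapping ORFs were higher and 16 lower in mutants than in wild types (11.7% of 196, against 17% of all ORFs, 8.54% up and 8.43% down). The median log2 difference was -0.18, against -0.02 for all ORFs. The ORFs that started before had a median of -0.26, with 105 of 148 negative, and the other 48 a median of 0.13. Upstream ORFs without overlap had a median of -0.51, and 72 of their 500 were lower and 7 higher. The longest ORF was called in the same direction in 10 of the 23 and in the opposite one in none (0).

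ORF 191 to 355 of ENSMUST00000057608, which shared 51.5% of its 55 codons, had 9.34, 10.4, 10.1 and 6.34 CPM in restricted wild types and 2.72, 2.82, 5.28 and 4.27 CPM in restricted mutants. The groups did not overlap (-1.26 ± 0.22, 2.39-fold, adjusted p = 0.000253), and the difference in the longest ORF was smaller (-0.78, adjusted p = 0.0550). The test of changes relative to the longest ORF, given below, did not call this ORF. ORF 1448 to 1624 of ENSMUST00000134929, the denser partner of a longest ORF of 60 codons, had 6.95, 5.86, 7.60 and 7.53 CPM in restricted wild types and 4.13, 1.60, 2.62 and 3.98 CPM in restricted mutants. All mutants were lower (-1.19 ± 0.28, adjusted p = 0.00423). The calls of both ORFs' levels passed in all 8 fits that left out 1 library and in the 6 other alternatives. Of these alternatives, 1 kept only ORFs out of frame, which repeats the main fit because every overlapping ORF is out of frame.

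ORF 7 to 447 of ENSMUST00000227032, higher in fed mutants, was higher in restricted mutants as well. It stood at 2.66, 2.26, 2.83 and 3.57 CPM in restricted wild types and at 3.65, 5.49, 5.89 and 6.88 CPM in restricted mutants, with all mutants above. The log2 difference was 0.95 ± 0.24 (1.94-fold, adjusted p = 0.00777), beside 0.99 (adjusted p = 0.00157) for the longest ORF. The call of the overlapping ORF passed in all 8 fits that left out 1 library and was lost in 1 of 6 other alternatives. A fit of only the compared groups made 5 calls in place of 23. The summed macrophage markers stood at 463 to 582 CPM in restricted mutants and at 258 to 387 CPM in restricted wild types, and their part in these differences was not tested.

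**Figure D4:**
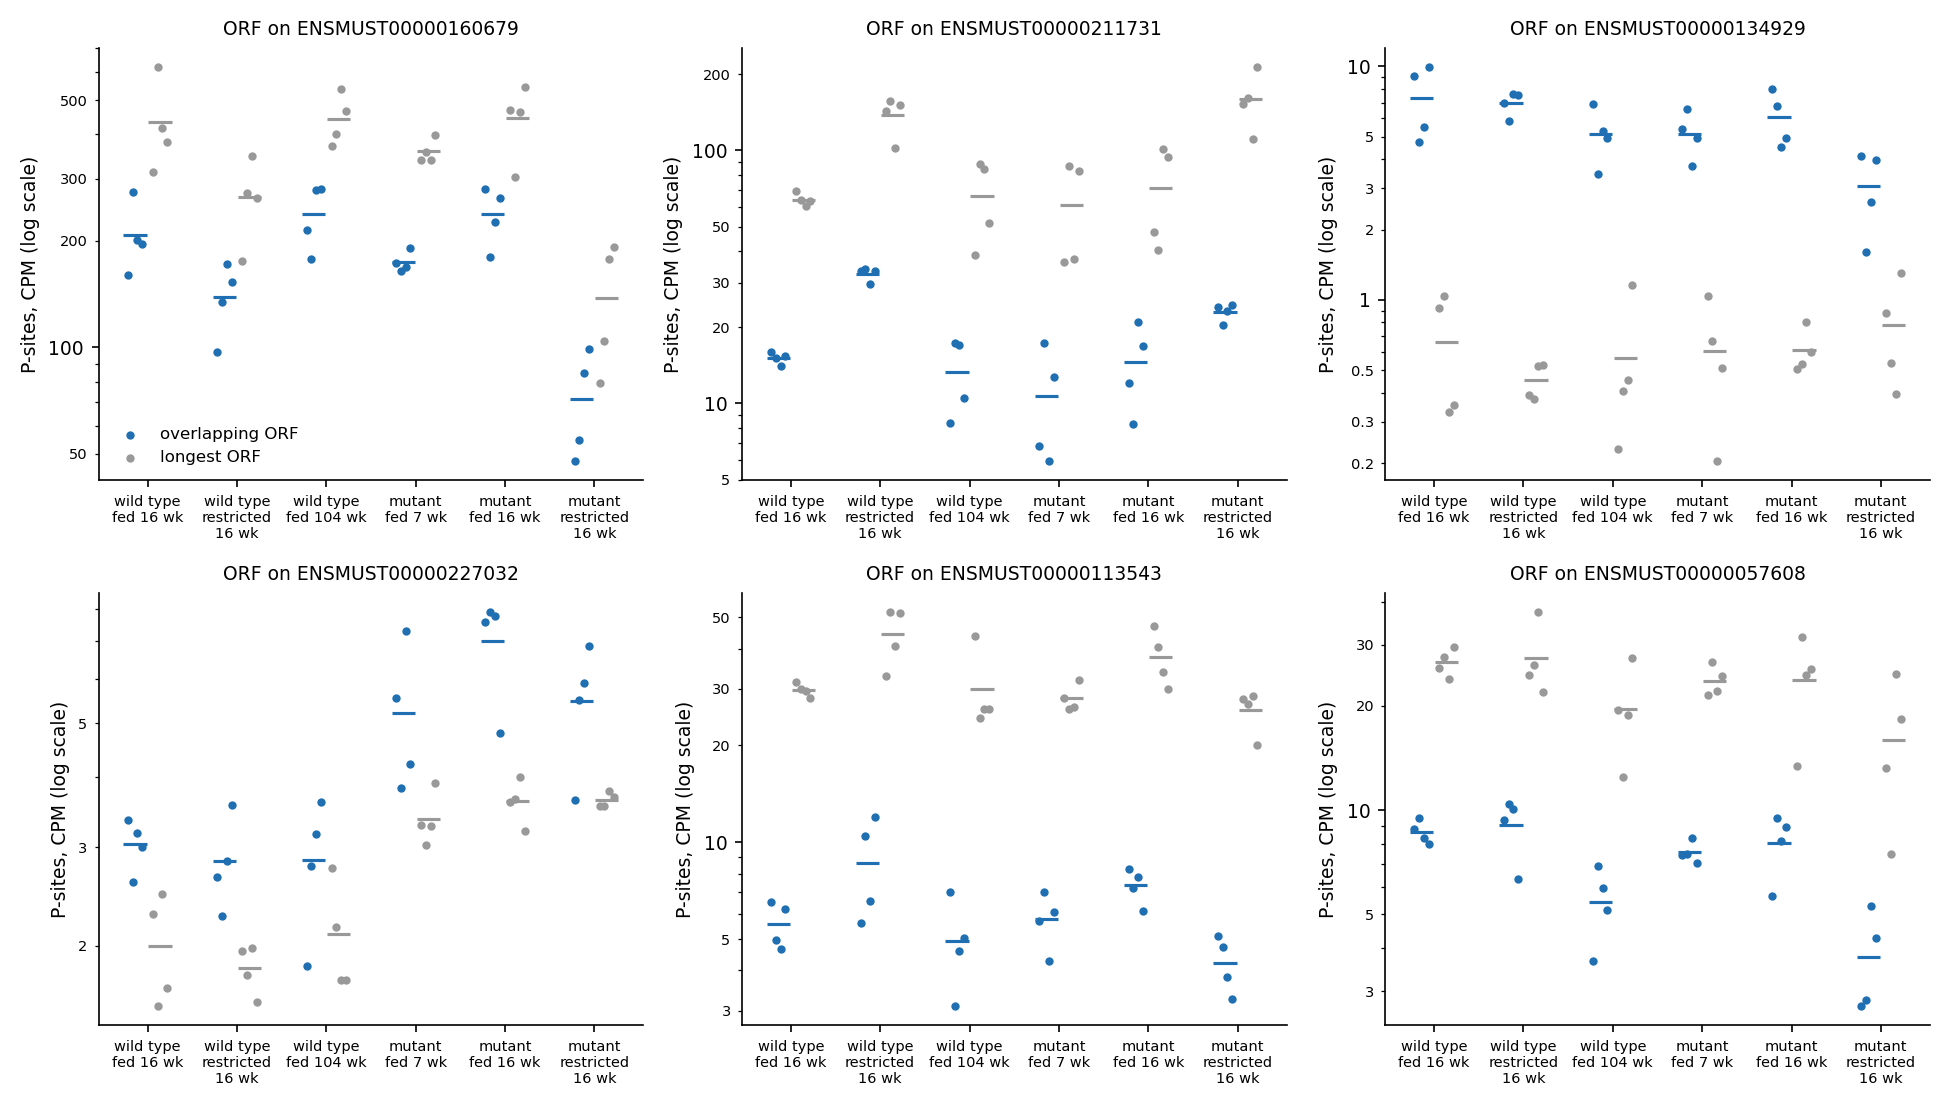
Levels in CPM (log scale) of 6 overlapping ORFs, in blue, and of the longest ORF of their transcript, in grey, in the 24 libraries by group, with a line at each group's mean. The ORF of ENSMUST00000160679 falls with its longest ORF in restricted mutants, while that of ENSMUST00000134929 is lower there and its longest ORF is not.

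The effect of restriction differed between genotypes for 1 of the 196 overlapping ORFs (0.51%, against 0.654% of all ORFs, 0.403% up and 0.251% down). ORF 1228 to 1404 of ENSMUST00000113543 (59 codons, 52.0% shared, ending after the longest ORF) had 6.52, 4.97, 4.66 and 6.19 CPM in fed wild types and 5.62, 10.4, 6.56 and 12.0 CPM in restricted wild types. In mutants it had 8.25, 7.20, 7.82 and 6.12 CPM when fed and 5.10, 4.72, 3.81 and 3.26 CPM when restricted. The wild-type groups overlapped and the mutant groups did not. The difference of the log2 changes was -1.42 ± 0.34 (adjusted p = 0.0484), from 0.62 ± 0.24 in wild types (adjusted p = 0.0964) and -0.79 ± 0.24 in mutants (adjusted p = 0.0369). Its longest ORF gave -1.11 (adjusted p = 0.0329). The call was lost in 14 of 16 fits that left out 1 library. The count of calls was 0 without fed mutant 1, 3 or 4, restricted mutant 1 or 2, or fed wild type 1, 3 or 4, and 3 without restricted wild type 1; DESeq2 called 4.

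To ask whether an overlapping ORF changed other than its own longest ORF, the change relative to the longest ORF was tested with edgeR over the 750 ORFs that were not the longest of their transcript and had enough counts, 193 of them overlapping. Only under restriction in mutants and between the restricted groups were any overlapping ORFs called. In the other comparisons the count was 0: for the mutation with free feeding 15 of 193 had an unadjusted p below 0.05 (0.133% of the 750 called), for age 7 (0 of 750), for 16 against 7 weeks 7 (0 of 750), for restriction in wild types 8 (0.133%) and for the difference between genotypes 8 (0.133%). The same test in limma also called 0 overlapping ORFs in each of these 5.

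Restriction in mutants lowered 3 overlapping ORFs against their longest ORF and raised none (0) (1.55% of 193, against 3.33% of the 750, 0.4% up and 2.93% down). The 3, chosen after their values were seen because all were under 5 CPM, were ORF 196 to 423 of ENSMUST00000039234 (-1.54 ± 0.40, adjusted p = 0.0265), ORF 4 to 180 of ENSMUST00000154219 (-1.03 ± 0.28, adjusted p = 0.0296) and ORF 50 to 139 of ENSMUST00000205497 (-2.02 ± 0.56, adjusted p = 0.0301). All 3 started before the longest ORF, and none of their longest ORFs was called. In ORFs that started before, 101 of 146 changes were negative (median -0.18), beside 490 of all 750 (median -0.18). In those that ended after, the median was -0.01, and for upstream ORFs without overlap -0.33. The count became 0 without fed mutant 3, restricted mutant 2 or restricted mutant 3, and 1 without fed mutant 1 or fed mutant 2.

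Between the restricted groups, 6 overlapping ORFs were lower and 1 higher against their longest ORF in mutants (3.63% of 193, against 7.6% of the 750, 0.267% up and 7.33% down). The median was -0.14 over the 193, -0.24 for ORFs that started before, 0.06 for those that ended after and -0.42 for the 470 upstream ORFs without overlap, of which 44 were lower and 1 higher. ORF 1448 to 1624 of ENSMUST00000134929 had 1780%, 1557%, 1464% and 1425% of the P-sites of its longest ORF in restricted wild types and 472%, 300.0%, 664% and 306% in restricted mutants. No restricted mutant came near a restricted wild type (-1.90 ± 0.49, adjusted p = 0.0111). The call passed in all 8 fits that left out 1 library, with limma and with the replicate block. The ratio spread widely elsewhere, from 456% to 2800% in fed wild types and from 425% to 3000% in old ones. Both ranges reached into that of the restricted mutants. With only the compared groups or a minimum count of 30 this ORF gave no value. The longest ORF itself was not called (0.73, adjusted p = 0.334) and was low, with 266 P-sites over all libraries.

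ORF 1 to 210 of ENSMUST00000211731 had 23.2%, 21.7%, 28.9% and 21.9% of the P-sites of its longest ORF in restricted wild types and 15.8%, 12.6%, 20.9% and 11.5% in restricted mutants. The groups came close but did not overlap (-0.68 ± 0.19, adjusted p = 0.0233), and the call was lost without restricted mutant 2 (adjusted p = 0.0696), restricted mutant 4 (0.0992) or restricted wild type 3 (0.101). The 1 ORF that was higher, named after its values were seen, was ORF 23 to 301 of ENSMUST00000002152, with 4, 4, 3 and 1 P-sites in restricted mutants and 0 in each restricted wild type, too few for a fold. The count of 7 was 4 without restricted mutant 1 or 3, 3 without restricted wild type 3, and 2 when only the compared groups were fitted.

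**Figure D5:**
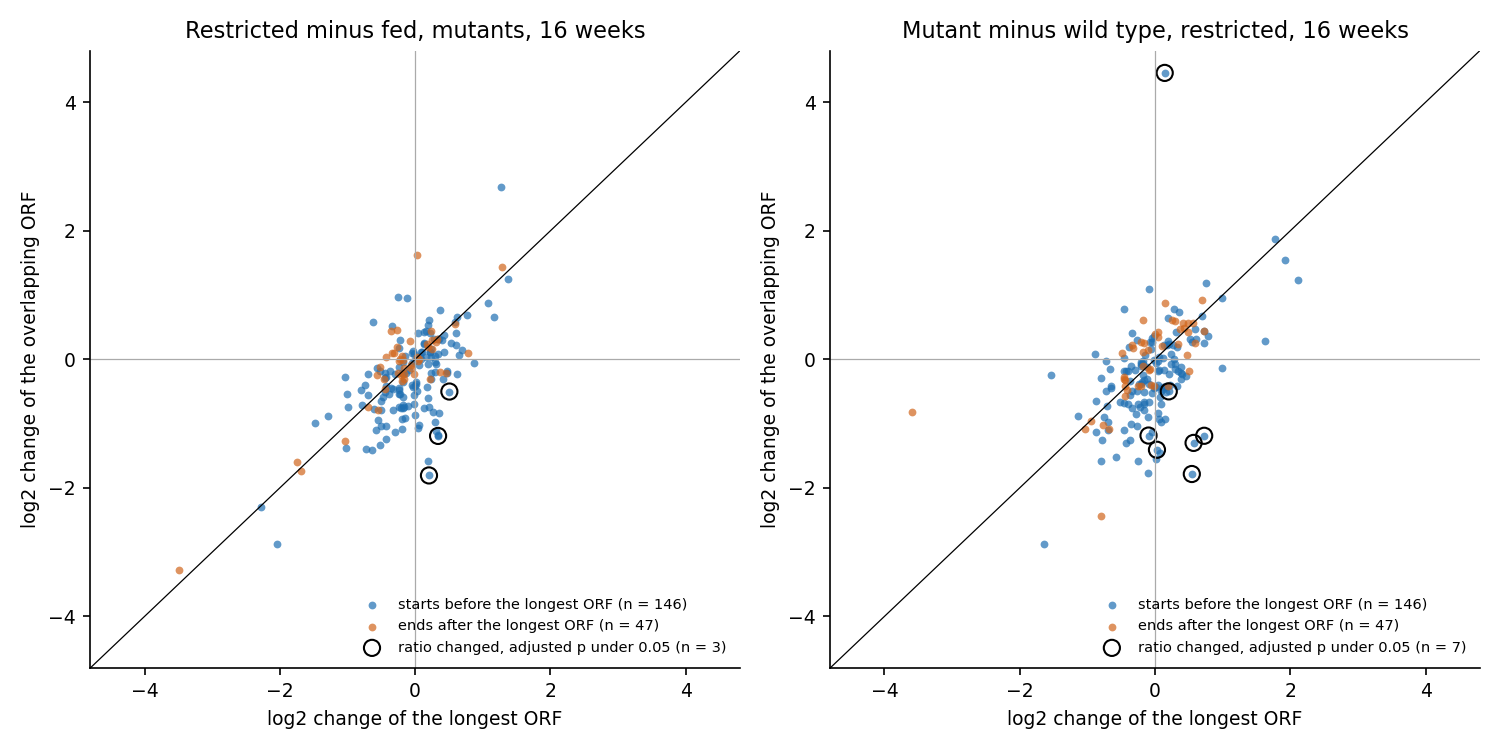
Log2 change of each overlapping ORF (vertical) against that of its longest ORF (horizontal) for restriction in mutants and for mutants against wild types under restriction, with the line of equal change. Of 146 ORFs that started before the longest ORF, 102 and 101 lie below the line. Of 47 that ended after it, 22 and 20 do. In the test relative to the longest ORF, 490 and 506 of all 750 ORFs had negative changes. Circles mark the 3 and 7 ORFs whose change relative to the longest ORF was called.

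The shift of the ORFs that started before could be read in single libraries, with 1 overlap. The median over these ORFs of the log2 ratio to the longest ORF, centred on each ORF's mean, was -0.27, -0.17, -0.32 and -0.16 in the restricted mutants (mean -0.23 ± 0.08, SD, n = 4) and -0.06, -0.01, 0.01 and -0.01 in the fed mutants (-0.02 ± 0.03). Restricted wild types spread from -0.17 to 0.25, and the lowest of them lay among the restricted mutants. For ORFs that ended after, the restricted mutants had 0.17, 0.07, 0.03 and 0.09, none of them below 0. Upstream ORFs without overlap had -0.30, -0.25, -0.43 and -0.15 in the restricted mutants. Depth ran alongside: in 4 of the 6 groups the deepest library had the lowest median of the ORFs that started before, and in 4 the shallowest had the highest, and the part of depth in the shift was not tested.

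The overlapping and the longest ORF of a transcript tended to move together. Across the 193 ORFs, the correlation of the log2 change of the overlapping with that of the longest ORF was 0.669 for restriction in mutants, 0.722 for restriction in wild types, 0.655 for age, 0.587 for the mutation with free feeding, 0.497 for 16 against 7 weeks, 0.486 between the restricted groups and 0.383 for the difference between genotypes. These are descriptions across ORFs that share libraries and may share P-sites, depending on how shared stretches were counted. No pair was called in opposite directions in any of the 7 comparisons.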

How the data were processed

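The authors deposited a table of P-site counts per ORF for 24 ribosome profiling libraries, 1 per liver per the labels, and a table of counts per gene, used here for marker genes and Ercc1 only. The submitters' processing notes name Trimmomatic 0.39, cutadapt 3.4, Bowtie2 2.4.2, STAR 2.7.0f and 2.7.8a, featureCounts of Subread 1.6.4 and the mouse build GRCm38.p6. Which of them made the ORF table, how ORFs were found, whether an ORF's end includes the stop codon and how P-sites in shared stretches were counted is not given in the sources used here.

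From the deposited counts, ORFs were filtered with filterByExpr (minimum count 10), scaled by TMM and fitted over all 6 groups (18 residual degrees of freedom) with edgeR 4.0.16 in R 4.3.3, by robust quasi-likelihood tests with Benjamini-Hochberg adjustment; the biological coefficient of variation was 23.9% (20.5% for changes relative to the longest ORF). A standard error is the size of the log2 change divided by the square root of F. The relative test set each ORF's counts against those of its longest ORF in the same model. Per-library ratios used 0.1 CPM as pseudocount. CPM values are counts per 1000000 of the TMM-scaled library total (of the plain gene total for marker genes). In simulated data for the restricted groups the level test recovered 43.8% of 2-fold and 89.8% of 4-fold changes among 18054 ORFs with 5.8% false calls, and the relative test 29% and 87.2% among 701 with 6.03%. These are not rates for the overlapping ORFs, because the changed ORFs were drawn from all those tested. The share of changed ORFs, on which the adjusted p depends, also differed from the data. The level simulation changed 96 ORFs 2-fold and 98 4-fold, a far smaller share than the 17% called between the restricted groups. The relative one changed 93 and 94 of 701, a larger share than the 7.6% called. Between the restricted groups the median standard error of the level test was 0.372 for overlapping ORFs and 0.254 for all ORFs. Counts of an ORF and its longest ORF were simulated independently, unlike in the data.

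The ORFs and lists were chosen with earlier results of these data known. Named ORFs are the 10 with the highest level and the first 3 of each arrangement and frame (given in part), those with the highest density ratio at 5 CPM or more, and, per comparison, the largest rises and falls past an adjusted p of 0.05 with a group mean of 5 CPM or more and no overlap of the groups (not asked of the difference between genotypes), of which at most 2 up and 2 down are printed because no gene names are paired with the transcripts. A planned list of genes known for upstream ORFs could not be applied for the same reason. Alternatives were DESeq2 1.42.0, limma 3.58.1, other filters, fitting only the compared groups, a replicate block and leaving out each library. Keeping only ORFs out of frame was counted as an alternative too, but it repeats the main fit because no overlapping ORF was in frame. No pairing of the livers by replicate number was seen in the correlations given below.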

Additional observations from a re-analysis of the deposited data

Results flagged for a closer look

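Among 150 groups of 4 values examined for the named ORFs and the summed measures, 10 (6.67%) held a library far from the other 3, where chance gives about 1 in 20. ORF 117 to 419 of ENSMUST00000030455 had 69.1 CPM in young mutant 3, against 52.4 to 53.8 CPM in the other young mutants. ORF 498 to 674 of ENSMUST00000109605 had 8.94 CPM in restricted wild type 1, against 14.3 to 15.3 CPM. ORF 7 to 447 of ENSMUST00000227032 had 4.79 CPM in fed mutant 4, against 7.60 to 7.89 CPM, and ORF 1275 to 1673 of ENSMUST00000114455 had 15.5 CPM in fed wild type 4, against 12.0 to 12.2 CPM.

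ORF 348 to 749 of ENSMUST00000156036 stood apart in 2 groups, with 17.8 CPM in restricted mutant 4 against 14.4 to 14.6 CPM, and with 11.4 CPM in restricted wild type 3 against 21.1 to 21.7 CPM. ORF 1 to 156 of ENSMUST00000117131 had 3.96 CPM in fed wild type 1, against 5.20 to 5.30 CPM. ORF 1 to 210 of ENSMUST00000211731 had 29.6 CPM in restricted wild type 3, against 33.3 to 34.0 CPM. ORF 1200 to 1553 of ENSMUST00000239057 had 10.5 CPM in restricted mutant 3, against 15.0 to 15.4 CPM. The P-sites of all overlapping ORFs were 27.6% of those of their longest ORFs in fed mutant 4, against 29.5% to 29.7% in the other fed mutants.

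The effect of restriction on ORF 1228 to 1404 of ENSMUST00000113543 differed between genotypes by -1.42 on the log2 scale (edgeR, adjusted p = 0.0484).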

How the results depend on the processing

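The 33 calls of named ORFs kept their direction under each alternative that gave a value. Fitting only the compared groups changed these counts of called overlapping ORFs: 13 in place of 7 for the mutation with free feeding, 7 in place of 3 for age, 3 in place of 0 for 16 against 7 weeks, 5 in place of 14 for restriction in wild types, 5 in place of 23 between the restricted groups, 0 in place of 1 for the difference between genotypes, and 2 in place of 7 relative to the longest ORF between the restricted groups. DESeq2 gave 7 for age and 4 for the difference between genotypes. A minimum count of 30 gave 9 for restriction in wild types, and with it or with no filter the difference between genotypes had 0. The share of P-sites, 0.113%, was 0.00986% over ORFs sharing at least 50% of their length, 28.7% with the longest ORFs of the same transcripts as denominator (where restricted wild types, at 29.9%, had a higher mean than fed ones, at 28.8%, with overlapping groups, in place of 0.106% below 0.117%), and 0.0773% without the 2 most abundant ORFs, an alternative chosen after seeing the data.

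Leaving out 1 library at a time gave 3 to 7 calls for the mutation with free feeding, 1 to 6 for age, 0 to 0 for 16 against 7 weeks, 6 to 16 for restriction in wild types, 9 to 16 for restriction in mutants, 19 to 28 between the restricted groups and 0 to 3 for the difference between genotypes. Relative to the longest ORF it gave 0 to 4 for restriction in mutants, 3 to 10 between the restricted groups and 0 to 0 in the other comparisons. Of 33 calls of named ORFs, 13 were kept in every fit that gave a value and 15 were lost in at least 1 that left out a library.

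No pairing of the livers by replicate number was seen. Over 60 pairs of libraries with the same number, the median correlation of their deviations was 0.011 (-0.358 to 0.286). Over 180 pairs with different numbers it was 0.009 (-0.3745 to 0.4525). It exceeded 0.1 in 13 of the 60 and 29 of the 180, and 7 of 24 libraries were closest to their own number. With the number as a replicate block the level counts were 7, 4, 0, 13, 18, 22 and 1, in the order of mutation with free feeding, age, 16 against 7 weeks, restriction in wild types, restriction in mutants, restricted groups and difference between genotypes. Relative to the longest ORF they were 0, 0, 0, 0, 3, 9 and 0.

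Depth limits the low ORFs: 88 of 284 had too few counts to be tested.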
